A study of Mus musculus with 6 samples.

Results

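The AP-1 and immediate early genes were examined in mouse embryonic stem cells (ESCs) and in the mesendoderm and endoderm cells made from them. The set holds 10 genes, taken by symbol from the 24054 genes of the expression tables: the Fos family (Fos, Fosb, Fosl1, Fosl2), the Jun family (Jun, Junb, Jund), and Atf3, Egr1 and Ier2. 9 of the 10 passed the filter on low counts, as did 14539 of the 24054 genes in all. Fosl1 did not pass and is given by its values alone.

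All cells came from the same double knock-in (DKI) ESC line, which carries Foxa2 fused to the yellow-green protein Venus on 1 allele and Sox17 fused to the red protein Cherry on both. Foxa2 and Sox17 are transcription factors of the endoderm lineage, and the fusions report the cells that make them. d0 cells were undifferentiated ESCs, negative for Foxa2-Venus and Sox17-Cherry. d3F cells, positive for Foxa2-Venus and negative for Sox17-Cherry, were sorted on day 3 as mesendoderm. d5FS cells, positive for both, were sorted on day 5 as endoderm. Differentiation used a medium with 1 ng/ml Wnt3a and 10 ng/ml Activin A, refreshed daily, and no value of either is given for d0. ESCs were kept in a medium with fetal calf serum and the cytokine LIF, and neither is listed for the differentiation medium. In comparisons with d0, stage and medium therefore cannot be told apart. 2 biological replicates per population were sequenced after ribosomal RNA was removed. Levels are in CPM, the expected count of a gene per 1000000 counts of its library. The levels describe a sorted bulk population, in which fewer cells of a type and less RNA per cell cannot be told apart.

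AP-1 is a dimer of basic leucine zipper (bZIP) proteins. Fos proteins dimerise with Jun proteins and cannot pair with each other, Jun proteins can pair with either, and the dimers bind the AP-1 site or, in some pairings, the cyclic AMP response element (CRE). Most of the genes described here are immediate early genes: growth factors, stress or handling of cells can raise their transcripts within minutes, without new protein synthesis, through kinases of the ERK, JNK and p38 pathways acting on factors already present at their promoters. Trypsin treatment and sorting preceded the RNA isolation in this study, and Activin signals through Smad proteins, which are known partners of AP-1.

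The library totals ran from 16457729 to 22768686 counts, and the markers of pluripotency and endoderm followed the labels. The summed level of Pou5f1, Nanog and Sox2, factors of pluripotency, was 1122 to 1723 CPM in d0, 418 to 901 in d3F and 70.1 to 95.2 in d5FS. The endoderm markers Foxa2, Sox17, Cer1 and Cxcr4 summed to 3.19 to 3.39 CPM in d0, 149 to 157 in d3F and 439 to 704 in d5FS, with Foxa2 and Sox17 set by the sort. The mesendoderm markers T, Eomes, Mixl1, Gsc and Foxa2 summed to 10.3 to 32.7 CPM in d0, 330 to 446 in d3F and 228 to 261 in d5FS. T and Mixl1 were highest in d3F, whereas Eomes, Gsc and Foxa2 overlapped between d3F and d5FS. ESCs were thawed on feeder cells and then grown without them. The 9 fibroblast markers, read as markers of such cells, summed to 30.01 to 39.7, 85.8 to 134 and 498 to 884 CPM in the same order, most of it from Acta2 and Col1a2 in d5FS. Col3a1 went from 1.99 and 2.07 CPM in d0 to 63.3 and 17.0 in d5FS, Postn from 0.588 and 0.314 to 33.5 and 6.10, and Col1a1 from 2.67 and 6.15 to 32.6 and 14.5, whereas Dcn stayed below 1 CPM and Lum at 1 count or less in every library, and Fbn1 and Thy1 were not higher in d5FS than in d0 replicate 1. The 6 markers of visceral and parietal endoderm, extraembryonic lineages of which the visceral one also expresses Foxa2 and Sox17, summed to 305 to 391, 406 to 717 and 1197 to 1256 CPM. Lamb1 and Sparc made up most of this. Ttr and Afp were below 1 CPM in d0 and d3F and between 6.56 and 25.1 CPM in d5FS. Tfap2c ran the other way, falling from 34.1 and 48.8 CPM in the ESC libraries to 7.47 and 4.84 CPM by day 5. Amn dropped from 1.63 and 2.20 CPM in ESCs to 0.176 and 0.387 CPM on day 3. On day 5 Amn stood at 2.31 and 5.01 CPM. Blood cell markers summed to 0.226 CPM or less. The study's library list describes the replicates of a population differently, as an mRNA and a total RNA library, without saying which number is which, so a difference between replicates and a difference in library type cannot be told apart. In replicate 1 of d0, d3F and d5FS, genes without a protein-coding transcript held 11.72%, 11.71% and 13.73% of counts. In replicate 2 they held 16.6%, 15.37% and 14.04%. Histone cluster genes held 3.213%, 3.372% and 1.313% of counts in replicate 1 and 4.974%, 3.853% and 2.585% in replicate 2. Replicate 2 was thus higher in both shares in every population, and whether this follows library type was not tested.

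Promoter sequences of Fos, Jun and Junb are shown as examples. Fos and Jun passed the test in at least 1 comparison, and Junb did not differ detectably in any comparison. No window was at hand for Fosl1 and Ier2, which had lower values in d5FS than in d0. Each run is the 250 bases before the transcription start in RefSeq on GRCm38.p6, 5′ to 3′ along the strand of the gene. Capitals mark TGACG, the core of a CRE, TATAAA, the TATA box, and TGACATCA, the variant AP-1 site known from the Jun promoter. The Fos window lies at chr12:85473640-85473889 on the plus strand, and those of Jun at chr4:95052223-95052472 and Junb at chr8:84978749-84978998 on the minus strand.

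Fos: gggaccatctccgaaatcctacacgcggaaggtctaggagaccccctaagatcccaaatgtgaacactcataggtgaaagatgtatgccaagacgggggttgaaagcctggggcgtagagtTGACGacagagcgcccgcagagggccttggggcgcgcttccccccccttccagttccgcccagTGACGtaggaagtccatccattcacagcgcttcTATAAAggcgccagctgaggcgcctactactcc

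Jun: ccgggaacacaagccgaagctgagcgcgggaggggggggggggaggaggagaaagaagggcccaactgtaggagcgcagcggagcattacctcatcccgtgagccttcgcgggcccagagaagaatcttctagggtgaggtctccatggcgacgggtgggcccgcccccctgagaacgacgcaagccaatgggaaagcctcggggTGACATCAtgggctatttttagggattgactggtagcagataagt

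Junb: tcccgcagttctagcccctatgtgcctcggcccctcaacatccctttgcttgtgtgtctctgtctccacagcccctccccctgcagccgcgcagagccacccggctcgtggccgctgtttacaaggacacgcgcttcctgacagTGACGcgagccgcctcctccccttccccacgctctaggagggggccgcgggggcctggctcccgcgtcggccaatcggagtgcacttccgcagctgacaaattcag

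RefSeq windows were at hand for 7 of the 10 genes (Fos, Fosb, Fosl2, Jun, Junb, Jund and Atf3). That of Fosb is set by a start inside the gene span given with its values, and that of Jund by a RefSeq start well upstream of the GENCODE start, so it may not be the promoter used in these cells. Motifs were searched on both strands. TGACG was found in 4 of the 7 (Atf3, Fos, Fosb and Junb) and in 17.9% of the 32536 promoter windows of all genes. In Fos the copy nearest the start lay 66 to 62 bases before it, and in Fosb the copy lay 60 to 56 bases before it. TATAAA was found in Fos alone, 33 to 28 bases before the start, and in 12.3% of all windows. TGACATCA was found in Jun alone, 45 to 38 bases before the start, and in 2.84% of all windows. The full CRE, TGACGTCA, which contains TGACG, and the AP-1 site TGANTCA were found in none of the 7, against 1.56% and 6.73% of all windows, and the CArG box bound by serum response factor was found in none, against 1.48%. GGGCGG, the GC box, stood in 5 of 7 and in 33.0% of all windows, and CCAAT in Jun and Junb and in 33.8%. These are matches of letters in a short window, and binding was not measured here. A site further upstream, a CArG box included, was outside the search, and Fosl1, Egr1 and Ier2 were not searched.

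Of the Fos family, Fos itself rose with differentiation. Fos (chromosome 12, 85473890 to 85477274), which encodes the founding partner of Jun in AP-1, measured 5.93 and 2.02 CPM in the d0 libraries, 24.7 and 24.0 in d3F, and 33.4 and 16.2 in d5FS. Both d3F and both d5FS libraries lay above both d0 libraries, while the d3F values fell between those of the d5FS replicates. On the log2 scale Fos was 2.56 higher in d3F than in d0 (standard error 0.51), a ratio of 5.92, with an adjusted p of 0.0314 by edgeR's quasi-likelihood test. The same difference between d5FS and d0 was 2.55 (standard error 0.51, edgeR adjusted p = 0.0118). From d3F to d5FS the estimate was -0.01 (standard error 0.48). A gene was called where the Benjamini-Hochberg adjusted p was under 0.05 and the absolute log2 fold change above 1.

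Fos was the only one of the 9 tested genes called between d3F and d0. Over all tested genes 4.7% were called in that comparison, 2.8% as higher in d3F. The call was lost when any library that enters it was left out, except d0 replicate 1. Without d0 replicate 2 the log2 fold change of Fos was 2.07, without d3F replicate 1 it was 2.64, and without d3F replicate 2 it was 2.51. These fits leave 1 library in a population, and fewer calls were then made over all genes, so a lost call does not show that the difference rests on that library. Tested against a log2 fold change of 1 rather than 0, Fos did not pass either (edgeR adjusted p = 0.0962). In d5FS against d0 the call was lost without d5FS replicate 1, at a log2 fold change of 2.01.

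Fosb (chromosome 7, 19302696 to 19310118), a second immediate early Fos gene, had a lower TPM (a level corrected for transcript length) than Fos in every library and a like profile. It measured 2.94 and 1.84 CPM in the d0 libraries, 6.46 and 7.54 in d3F, and 5.71 and 6.72 in d5FS. No d0 library reached a differentiated one, and d3F and d5FS overlapped. The log2 fold changes against d0 were 1.48 in d3F (standard error 0.43, edgeR adjusted p = 0.0935) and 1.28 in d5FS (standard error 0.43, edgeR adjusted p = 0.0638), neither past the threshold.

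Fosl2 (chromosome 5, 32136472 to 32157840) encodes Fra-2, a Fos protein that lacks the strong transactivation domain of Fos. Its level was 16.1 and 4.45 CPM in the d0 libraries, 16.8 and 19.8 in d3F, and 45.1 and 22.7 in d5FS. In CPM the 3 populations did not overlap, but d0 replicate 1 nearly reached d3F, and with the TMM scaling used in the test it lay at 15.61, just above d3F replicate 1 at 15.55. The difference of 1.65 between d5FS and d0 on the log2 scale did not pass (standard error 0.55, edgeR adjusted p = 0.0613), although it did without d0 replicate 1, at 2.66 (edgeR adjusted p = 0.0121).

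Fosl1 (chromosome 19, 5447698 to 5455938), which encodes Fra-1, was nearly silent. It had 33.39 and 7.12 expected counts in the d0 libraries, 4.55 and 1.15 in d3F, and 1.16 and 1.24 in d5FS, or 1.51 and 0.320 CPM, 0.200 and 0.0556 CPM, and 0.0705 and 0.0706 CPM. Both d0 libraries lay above the 4 others, the opposite order to Fos, at counts too low for the filter. Without any filter Fosl1 was called as lower in d5FS than in d0 (edgeR adjusted p = 0.0158) but not in d3F than in d0 (edgeR adjusted p = 0.118), and at these counts no fold is given. The fractional counts show that fragments were shared out between Fosl1 and other features.

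**Figure D1:**
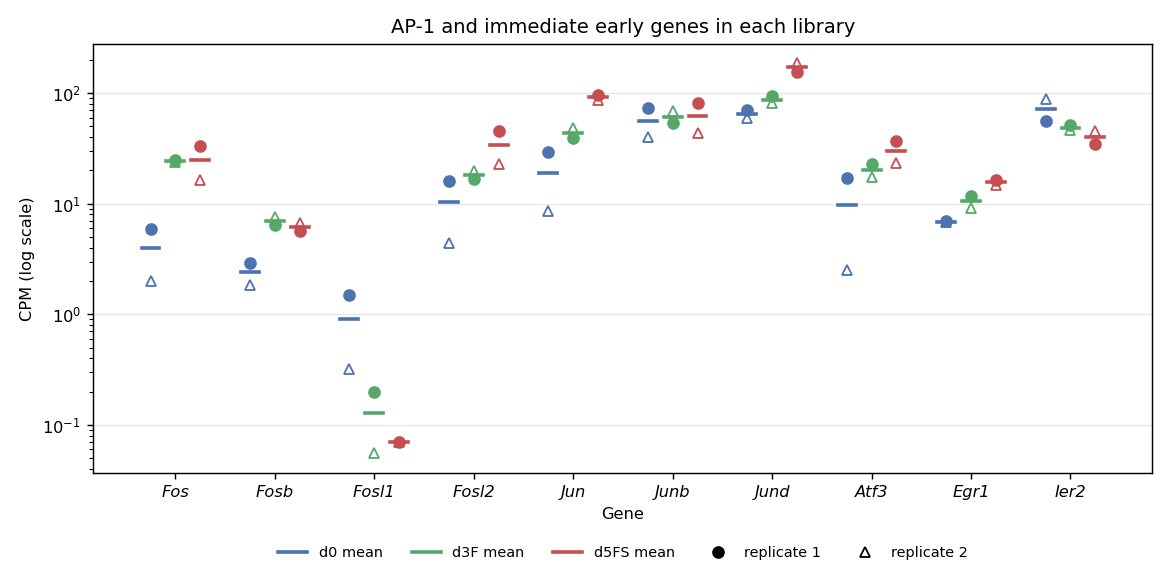
Level of each gene in CPM on a log axis (y) by gene (x); points are the 6 libraries, filled circles replicate 1 and open triangles replicate 2, and bars are the mean of the 2 libraries of a population. Fos, Jun and Jund are higher in both d5FS libraries than in both d0 libraries, Ier2 is lower, and Junb overlaps in all 3 populations.

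Within the Jun family, Jun and Jund rose by day 5 and Junb did not pass the test in any comparison. Jun (chromosome 4, 95049036 to 95052222) encodes the strongest transactivator of the family. It measured 29.6 and 8.58 CPM in the d0 libraries, 39.1 and 48.3 in d3F, and 97.1 and 87.2 in d5FS. The populations followed each other without overlap, and the d0 replicates were further apart than those of d3F or d5FS. Jun was 2.21 higher on the log2 scale in d5FS than in d0 (standard error 0.49, edgeR adjusted p = 0.0164), a ratio of 4.63. The steps before and after d3F were of like size, 1.17 from d0 to d3F (standard error 0.48, edgeR adjusted p = 0.209) and 1.04 from d3F to d5FS (standard error 0.47, edgeR adjusted p = 0.292), and neither passed on its own.

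Jund (chromosome 8, 70697739 to 70700616) encodes a Jun protein known for constitutive rather than inducible expression, and its order of levels was close between replicates. It stood at 70.6 and 59.3 CPM in the d0 libraries, 93.7 and 81.3 in d3F, and 156 and 185 in d5FS. Again no population overlapped another. The log2 fold change of d5FS against d0 was 1.29 (standard error 0.28, edgeR adjusted p = 0.0148), a ratio of 2.44, and most of it lay after day 3: 0.33 from d0 to d3F (standard error 0.27) and 0.95 from d3F to d5FS (standard error 0.27, edgeR adjusted p = 0.1245). The difference between these steps was not tested.

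Junb (chromosome 8, 84976909 to 84978748), a Jun protein that can restrain Jun activity, was at 72.7 and 40.3 CPM in the d0 libraries, 54.2 and 68.2 in d3F, and 80.8 and 43.8 in d5FS. The replicates of d0 and of d5FS were each spread over nearly the whole range. Its log2 fold changes were 0.06, -0.02 and 0.04 in d3F against d0, d5FS against d3F and d5FS against d0, with standard errors of 0.38 each, which leaves room for a difference of that size in either direction.

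Between d5FS and d0, 3 of the 9 tested genes were called, Fos, Jun and Jund, all as higher in d5FS. Over all tested genes 22.8% were called, 12.4% as higher. With a replicate block in the fit, Fosb, Fosl2, Atf3 and Egr1 were also called, as given in the last section. The calls over all genes then rose from 3313 to 4296, and the labels do not say that replicate numbers are shared. The calls below are from the fit without the block. Each of the 3 calls was lost in at least 1 fit with 1 library left out. Jun was lost without d5FS replicate 1 or d5FS replicate 2, at log2 fold changes of 2.18 and 2.24. Jund was lost without d0 replicate 2 or d5FS replicate 2, at 1.29 and 1.11. Such a fit leaves 1 library in a population, and fewer calls were then made over all genes. A lost call therefore does not show that a difference rests on the library left out. The summed markers of fibroblasts and of visceral and parietal endoderm were also highest in the d5FS libraries, as given above, and their part in these differences was not tested.

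Between d5FS and d3F none of the 9 was called, and 1, Jund, had an unadjusted p under 0.05 by edgeR. DESeq2 called none either. Over all tested genes 1.54% were called in that comparison, 1.08% as higher in d5FS.

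Atf3 (chromosome 1, 191170296 to 191183333) encodes a bZIP factor that dimerises with Jun proteins and is induced by many stresses. Its level was 16.9 and 2.52 CPM in the d0 libraries, 22.9 and 17.3 in d3F, and 36.7 and 23.5 in d5FS. d0 replicate 1 nearly reached the lower d3F library, while d0 replicate 2 stood far below every other library. The log2 fold changes against d0 were 1.02 in d3F (standard error 0.66) and 1.58 in d5FS (standard error 0.67, edgeR adjusted p = 0.119), neither called. Without d0 replicate 1 both were called, at 2.77 (edgeR adjusted p = 0.0155) and 3.32 (edgeR adjusted p = 0.00422).

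Egr1 (chromosome 18, 34861207 to 34864956), a zinc finger factor and a standard readout of ERK activity, was even between replicates. It measured 7.01 and 6.78 CPM in the d0 libraries, 11.9 and 9.09 in d3F, and 16.5 and 14.7 in d5FS. Each population lay above the one before it. The log2 fold change of d5FS against d0 was 1.05 (standard error 0.34, edgeR adjusted p = 0.054), just outside the threshold.

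Ier2 (chromosome 8, 84661331 to 84662852), an immediate early gene for a nuclear protein, was the only tested gene of the set with lower values in both differentiated populations than in d0. It was at 56.1 and 88.9 CPM in the d0 libraries, 51.2 and 46.4 in d3F, and 34.9 and 45.0 in d5FS. Both d0 libraries were above the 4 others. The log2 fold change of d5FS against d0 was -0.9999 (standard error 0.36, edgeR adjusted p = 0.0794), and without d0 replicate 1 it was -1.39 and was called (edgeR adjusted p = 0.0298).

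**Figure D2:**
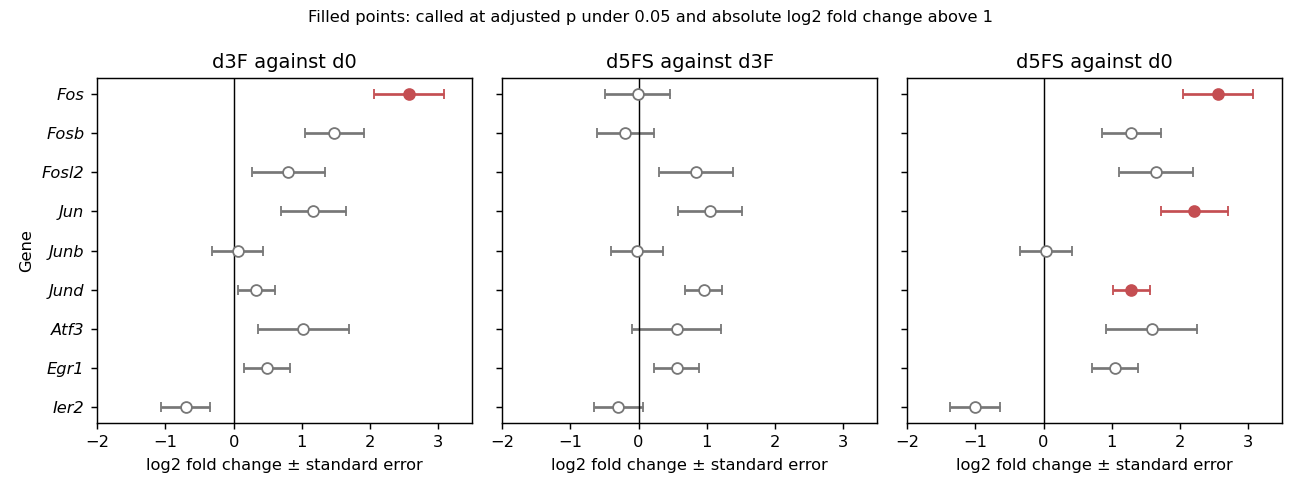
Log2 fold change (x) of the 9 tested genes (y) in the 3 comparisons, as fitted by edgeR; bars are 1 standard error, and filled red points are called. Fos is called in d3F against d0, Fos, Jun and Jund in d5FS against d0, and none in d5FS against d3F.

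Across the set, 8 of the 9 tested genes had a log2 fold change above 0 in d3F against d0, with Ier2 below, and the median was 0.80, against -0.01 over all tested genes. In d5FS against d0 it was again 8 of 9, with a median of 1.29 against 0.02. In d5FS against d3F it was 5 of 9, with a median of 0.56 against 0.01. The 3 comparisons share libraries, so these counts do not add to each other. CPM of the populations did not overlap for 8 of 9 genes in d3F against d0 (49.5% of all tested genes), for 6 of 9 in d5FS against d3F (51.6%) and for 8 of 9 in d5FS against d0 (62.3%). With CPM scaled by TMM, as in the test, these were 7, 6 and 8 of 9 (51%, 52.2% and 62.7% of all tested genes), since Fosl2 then overlapped between d3F and d0. An unadjusted p under 0.05 was reached by 3, 1 and 8 of the 9 in the same order, and by 20.6%, 18.1% and 38.9% of all tested genes. In the d5FS comparison with d0, DESeq2's Wald test called 8 members and edgeR 3, and the 5 that it added had edgeR adjusted p values from 0.054 to 0.119.

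The make-up of each family was read from TPM, the abundance of transcripts corrected for their length and scaled to 1 total per library, which was used only within a library. In d0, Fos made up 40.2% and 41.1% of the summed TPM of the Fos family, in d3F 72.7% and 69.1%, and in d5FS 64.8% and 59.2%. Fosl2 went from 36.4% and 31.1% in d0 to 16.6% and 19.1% in d3F and 29.2% and 27.6% in d5FS. Fosl1 held 12.9% and 7.78% in d0 and less than 1% in the 4 differentiated libraries. So Fos and Fosl2 stood close together in ESCs, and Fos led the family in d3F and d5FS. The whole Fos family summed to 4.95 TPM in d0 replicate 1 and 0.9 TPM in d0 replicate 2. The d0 shares, and the d0 ratios of the Jun to the Fos family below, therefore rest on low levels.

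In the Jun family Jun went from 12.3% and 5.80% of the summed TPM in d0 to 16.1% and 18.3% in d3F and 23.2% and 23.4% in d5FS. Junb held 55.1% and 49.5% in the d0 libraries, 40.8% and 47.2% in d3F, and 35.1% and 21.3% in d5FS. Jund held 32.7% and 44.7%, 43.1% and 34.4%, and 41.6% and 55.3% in the same order, so Junb led Jund in both d0 libraries and Jund led Junb in both d5FS libraries. Jun-family TPM exceeded Fos-family TPM in every library, by a ratio of 10.3 and 19.4 in the d0 libraries, 4.53 and 4.81 in d3F, and 5.14 and 8.64 in d5FS. These shares are of transcripts, and protein was not measured.

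**Figure D3:**
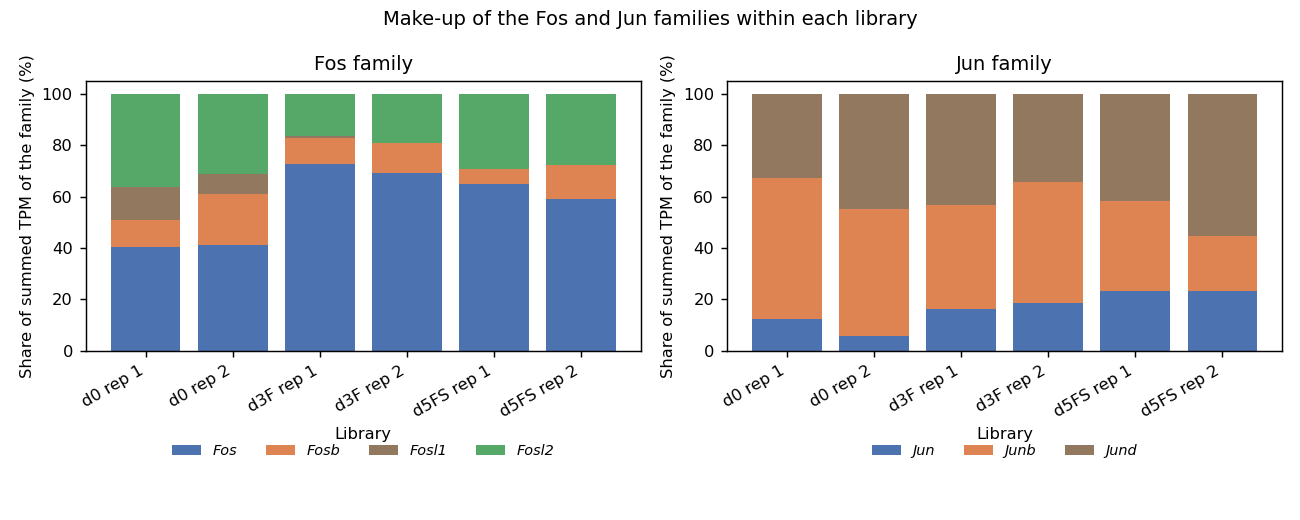
Share in percent of the summed TPM of the Fos family (left) and the Jun family (right) held by each gene (y) in each of the 6 libraries (x). The Fos share is 40.2% and 41.1% in d0 and 59.2% to 72.7% in d3F and d5FS, and the Jun share is highest in d5FS.

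The rank of a gene among protein-coding genes by TPM in the same library gives its standing. Jund was at percentile 82.2 and 82.6 in d0 and at 91.8 and 93.7 in d5FS. Jun moved from 65.2 and 51.2 to 85.8 and 85.9, and Fos from 44.9 and 38.7 to 74.9 and 66.2, with 68.8 and 72.3 in d3F. Egr1 stayed near the middle, between 41.4 and 57.7 in the 6 libraries. In the files Jun, Junb, Jund and Ier2 have a transcript as long as the gene itself, which means no intron, so reads from spliced and unspliced RNA cannot be told apart for these 4.

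The ESC replicates differed in several of these genes. As log2 of replicate 2 over replicate 1, the difference in d0 was -2.47 for Atf3, -1.60 for Fosl2, -1.54 for Jun, -1.28 for Fos, -0.61 for Junb and -0.42 for Fosb. It was -0.02 for Jund, 0.18 for Egr1 and 0.90 for Ier2. 4 of the 9 lay below -1, as did 11.5% of all tested genes, and the SD over all tested genes was 0.88. In d3F each of the 9 differed by 0.51 or less, and in d5FS the largest differences were -0.93 for Fos, -0.88 for Fosl2 and -0.77 for Junb. d0 replicate 1, with the higher Fos, Jun and Atf3, also had less Nanog (76.3 against 267 CPM) and more T, a mesendoderm factor (20.4 against 4.49 CPM), than d0 replicate 2. Whether these differences are related was not tested.

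**Figure D4:**
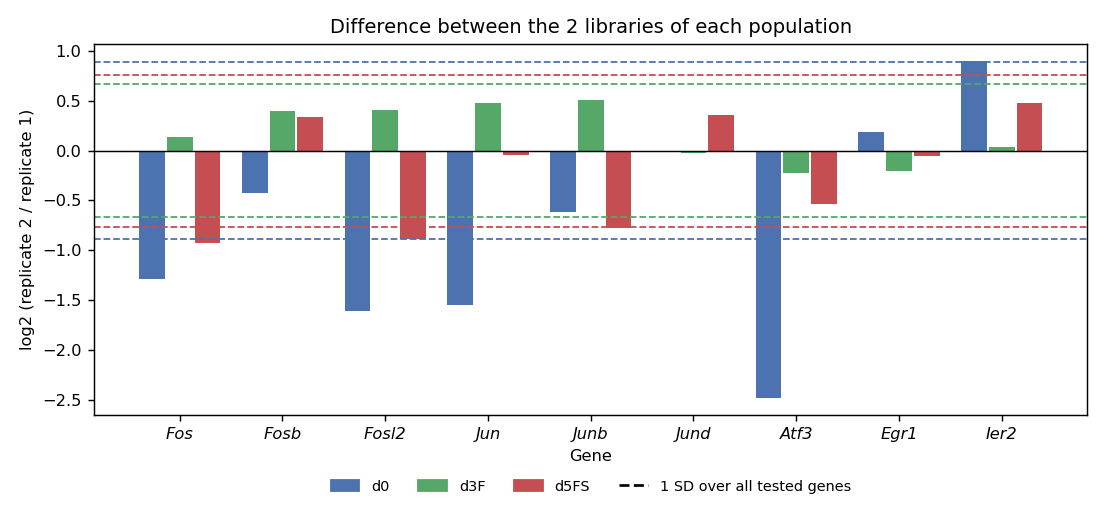
Log2 ratio of replicate 2 to replicate 1 (y) for the 9 tested genes (x) in d0, d3F and d5FS; dashed lines are 1 SD over all tested genes in each population. In d0, Atf3, Fosl2, Jun and Fos lie below the d0 lines and Ier2 just above them, in d5FS Fos, Fosl2 and Junb lie below the d5FS lines, and in d3F no gene lies outside.

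Profiles were compared by Pearson's r of log2 CPM over the 6 libraries, which share populations, so r is given as a description. Fosl2 went with Jun (0.954) and Atf3 (0.952), Fos with Fosb (0.921), and Jund with Egr1 (0.934), while Ier2 ran opposite to Fosl2 (-0.984) and Atf3 (-0.981). Such values were common with 6 points: 214 tested genes had r above 0.95 with Fos, 343 with Jun and 218 with Egr1. The genes nearest to Fos were Aph1b (0.9934), Med31 (0.9926) and Ifi27l2a (0.9924), those nearest to Jun were Arhgap6 (0.9989), Ube2e2 (0.9988) and 2610008E11Rik (0.9976), and those nearest to Egr1 were Mex3d (0.9971), Tmem181c-ps (0.9964) and Gpr39 (0.9935).

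Other AP-1 family and related bZIP factors included a gene called in the same comparisons as Fos. Of 13 tested, Jdp2 alone was called in d3F against d0, none in d5FS against d3F, and 3 in d5FS against d0, all higher. The shares in the comparisons with d0 were 7.69% for d3F and 23.1% for d5FS, near the 4.7% and 22.8% of all tested genes. Jdp2, which encodes a Jun partner that represses AP-1, measured 2.26 and 2.07 CPM in the d0 libraries, 13.1 and 14.3 in d3F, and 21.3 and 9.51 in d5FS. Its log2 fold change against d0 was 2.57 in d3F (edgeR adjusted p = 0.022) and 2.69 in d5FS (edgeR adjusted p = 0.0068). The small Maf gene Maff was 1.55 higher in d5FS than in d0 (edgeR adjusted p = 0.0478).

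Among 25 tested immediate early genes outside the set, none was called in the first step or the second. In d5FS against d0, 5 were called higher and 1 lower. The share called in d5FS against d0 was 24%, close to the 22.8% of all tested genes. In the first and second steps 4.7% and 1.54% of all tested genes were called. The antiproliferative gene Btg2 was 1.98 higher on the log2 scale (edgeR adjusted p = 0.0247) and Cyr61, which encodes a matrix-associated signalling protein, 1.78 higher (edgeR adjusted p = 0.0473). Both had the low d0 replicate 2 seen for Jun: Btg2 was at 113 and 36.1 CPM in d0 and 361 and 255 in d5FS, and Cyr61 at 194 and 43.5 CPM and 430 and 414. The gene called lower was Mcl1, a survival gene of the Bcl2 family, named after its values were seen. It had 506 and 520 CPM in d0 and 245 and 170 in d5FS. With 1 library left out the number called higher ran from 0, without d0 replicate 2 or without d5FS replicate 1, to 7, without d0 replicate 1, and it was 1 without d3F replicate 1, d3F replicate 2 or d5FS replicate 2.

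Few genes upstream of the set were called, and most of the ERK feedback genes called in d5FS against d0 were lower. Of 17 tested kinases and SRF or ETS factors, 2 were called higher in d5FS than in d0. They were Map3k1, a kinase upstream of JNK (1.5004, edgeR adjusted p = 0.0134), and Mapk3, which encodes ERK1 (1.02, edgeR adjusted p = 0.035). Of 13 tested ERK feedback genes, which ERK signalling is known to induce, 6 were called lower and 1 higher in d5FS than in d0. The median log2 fold change of the 13 was -0.90. The ETS factor Etv5 went from 244 and 330 CPM in d0 to 143 and 75.5 in d3F and 23.8 and 39.8 in d5FS, a log2 fold change of -3.30 from d0 to d5FS (edgeR adjusted p = 0.00343). Etv1 fell by 2.99 on the same scale (edgeR adjusted p = 0.0328). Egr1, also known to be induced by ERK, had higher values in d5FS than in d0, as given above. Of 9 corepressors and turnover factors, 1 was called, the Egr1 corepressor Nab1, 2.26 higher in d5FS than in d0 (edgeR adjusted p = 0.0397). With 1 library left out, 3 (without d5FS replicate 1) to 5 of the ERK feedback genes were called lower. None of these 3 lists had a call in d3F against d0 or in d5FS against d3F. In d5FS against d0 the share called was 11.8% of the kinases and SRF or ETS factors and 53.8% of the ERK feedback genes. It was 11.1% of the corepressors and turnover factors, against 22.8% of all tested genes.

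Of 11 tested genes known as AP-1 targets, 2 were called higher in d3F than in d0. Cd44, which encodes a hyaluronan receptor, went from 4.52 and 0.764 CPM in d0 to 27.2 and 35.2 in d3F (log2 fold change 3.54, edgeR adjusted p = 0.0323). Vim, which encodes the filament protein vimentin, went from 84.5 and 99.8 CPM to 448 and 854 (2.74, edgeR adjusted p = 0.0171). The cell cycle gene Ccnd1 was 2.97 lower on the log2 scale in d5FS than in d3F as the only call there (edgeR adjusted p = 0.013). In d5FS against d0, 2 were called higher, Cd44 among them (2.43, edgeR adjusted p = 0.0372), and Ccnd1 was called lower. The median of the 11 was -0.32 in d3F against d0 and 0.82 in d5FS against d0. The share called was 18.2% in d3F against d0, 9.09% in d5FS against d3F and 27.3% in d5FS against d0. For all tested genes these shares were 4.7%, 1.54% and 22.8%.

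Stress genes were read because Atf3 is also a target of the integrated stress response and because cells were handled before lysis. Of 10 tested integrated stress response genes, 1 was called higher in d3F than in d0 and 2 in d5FS than in d0. These shares of 10% and 20% stand against 4.7% and 22.8% of all tested genes called in either direction. Vldlr, a lipoprotein receptor gene that also has other regulators, was 5.84 higher in d3F (edgeR adjusted p = 0.0024), and Ddit3, which encodes the stress factor CHOP, was 1.499 higher in d5FS (edgeR adjusted p = 0.0384). Of 10 tested heat shock genes none was called higher in any comparison, though some had log2 fold changes above 0 that were not called. The share called was 10% in d3F against d0 and 50% in d5FS against d0, against 4.7% and 22.8% of all tested genes. Hspb1 was 1.64 lower on the log2 scale in d3F than in d0 (edgeR adjusted p = 0.0236). In d5FS against d0, 5 were called lower, with the largest differences in Hsph1 (1.88 lower, edgeR adjusted p = 0.00573) and Hsp90aa1 (1.80 lower, edgeR adjusted p = 0.0227). With 1 library left out the number of heat shock genes called lower in d5FS ran from 1, without d5FS replicate 2, to 5, and it was 2 without d0 replicate 2 and 3 without d5FS replicate 1. Among the genes named from these lists, the differences between d5FS and d0 in Jdp2, Etv5, Ccnd1, Vldlr and Hsph1, and that between d3F and d0 in Vldlr, remained called with each of the 6 libraries left out. Every other one was lost without at least 1 library, and none changed sign under any of the 15 alternatives. The part of sorting and handling in the levels of the immediate early genes was not tested.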

How the data were processed

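RNA-seq of d0, d3F and d5FS cells was used, with 2 biological replicates each, grouped by the sample labels. The authors depleted ribosomal RNA with Ribo-Zero Gold, sequenced paired ends, aligned reads to mm10 with STAR and quantified genes with RSEM, whose versions are not given in the sources used here. The expected counts deposited by the authors estimate fragments per gene and are not normalized. RSEM shares out fragments that map to several genes. The deposited TPM values are scaled by the authors for length and to 1 total per library. Because 54.32% to 76.87% of TPM fell in genes without a protein-coding transcript, TPM was used only within a library.

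The 10 genes and the other lists were chosen with earlier results of these data known. Expected counts were rounded to whole numbers and fitted with edgeR 4.0.16 in R 4.3.3 (filterByExpr, TMM, glmQLFit and glmQLFTest over all 6 libraries, prior count 0.125 for fold changes, 3 residual degrees of freedom), with Benjamini-Hochberg adjustment over all 14539 genes tested. A standard error is the size of a log2 fold change over the root of its F statistic. An exact permutation test of 2 against 2 libraries cannot go below a two-sided p of 0.33, so none was run. The p-values are set against the spread between libraries of the same population. These were listed as an mRNA and a total RNA library, so that spread may include a difference in library type. The test was checked on simulated data. All 10 genes were named. From each other list the 2 called genes with the largest absolute log2 fold change per comparison were named, if their mean TPM was 1 or more in either population, and for Fos, Jun and Egr1 the 3 genes with the highest r (log2 CPM with a prior count of 2). Alternatives were other size factors, glmTreat, DESeq2 1.42.0 with and without a fold threshold, no filter, at least 10 counts in every library, a replicate block, pairwise fits, leaving out each library and, added after seeing the data, protein-coding genes only. The motif TGACATCA was added after the Jun sequence was seen. Gene positions and promoters are from RefSeq on GRCm38.p6, the assembly behind mm10.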

Additional observations from a re-analysis of the deposited data

How the results depend on the processing

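The number of the 10 genes called depended on the setting. In d3F against d0, where 1 was called, glmTreat against a log2 fold change of 1 and DESeq2 against the same threshold called 0, DESeq2's Wald test 2 and no filter 3, and leaving out 1 library gave 0 to 3. In d5FS against d0, where 3 were called, the counts were 1 with glmTreat, 1 with DESeq2 against the threshold, 8 with DESeq2's Wald test and 7 without a filter, and 1 to 6 with 1 library left out. In d5FS against d3F every setting gave 0. With the replicate block 7 were called in d5FS against d0, the added ones being Fosb (edgeR adjusted p = 0.042), Fosl2 (edgeR adjusted p = 0.0268), Atf3 (edgeR adjusted p = 0.034) and Egr1 (edgeR adjusted p = 0.0263). The labels do not say that a replicate number marks a shared batch, and there are 2 numbers only. Deviations of same-numbered libraries correlated at 0.314, 0.324 and 0.278 across genes, a hint from the data that the numbers may be shared. Of 405 fold changes of single genes under 15 alternatives, 371 kept their call, 14 lost it, 20 gained it and none that was called changed sign. 13 that were not called changed sign, all of them 0.19 or less in size in the fit of the report. The largest shift, 1.75, was that of Atf3 in d3F against d0 without d0 replicate 1. The cause was not tested.

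Calls over all genes moved too. They were 683, 224 and 3313 in d3F against d0, d5FS against d3F and d5FS against d0. With the replicate block they were 1320, 918 and 4296, with DESeq2's Wald test 1486, 1059 and 3997, without a filter 1933, 1423 and 4495, with glmTreat 242, 70 and 1235, with DESeq2 against the threshold 385, 189 and 1004, and with at least 10 counts in every library 357, 144 and 2478. With only the 2 populations compared they were 430, 529 and 2644. With 1 library left out they ran from 97 to 977, from 0 to 496 and from 1047 to 3037. Fosl1, with at most 5 counts in each differentiated library, is limited by depth.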
